A study of Mus musculus with 16 samples.

Results

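The genes described here are 33 antioxidant, glutathione and NRF2 target genes of the mouse kidney, chosen by symbol from a list of NRF2 pathway genes, glutathione enzymes, thioredoxins, peroxiredoxins and metallothioneins, out of 40879 gene symbols counted. Of the 33, 31 had enough counts to be tested, and Slc7a11 and Gstm3 did not. RNA of kidney tissue from male C57BL/6 mice was measured by QuantSeq, a 3′ sequencing method that counts transcript ends, in 16 libraries. Old + PM (3 libraries) received Palmijihwang-tang and Old + YM (3 libraries) Yukmijihwang-tang, both herbal formulas, at 100 mg/kg/day by mouth on 5 days a week between 19 and 24 months of age. Old (5 libraries) was left to age without treatment, and Young (5 libraries) was 3 months old. The aged groups had 5 months of acclimatization. The sources used here do not give the age at which the untreated Old mice were sampled, and in 1 place the labels write YM where the PM dose is described. The labels do not say that every library came from a separate mouse, so p-values measure only the spread between these libraries. In bulk tissue, fewer cells of a type and less RNA per cell cannot be told apart.

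NRF2, encoded by Nfe2l2, is a transcription factor that KEAP1 marks for degradation in unstressed cells. When oxidants or electrophiles modify KEAP1, NRF2 accumulates, pairs with small MAF proteins and binds antioxidant response elements (ARE) in front of genes for glutathione synthesis, glutathione transferases, quinone reduction and the thioredoxin system. Superoxide dismutases turn superoxide into hydrogen peroxide, which catalase, glutathione peroxidases and peroxiredoxins remove. Metallothioneins bind zinc, copper and cadmium. They are induced by metals through elements of their own (MRE, metal response elements), and also by glucocorticoids, through other elements. The kidney proximal tubule, with its many mitochondria and peroxisomes, is a main site of this chemistry, and the kidney is also the main source of the secreted peroxidase GPX3 in plasma.

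The libraries held 8223008 to 10914515 counts, of which the 33 genes together took 3.09% to 4.35%. The defining markers of kidney tubules were present in every library: the summed level of 10 proximal tubule genes lay between 11196 and 13603 CPM in Old + PM, 10721 and 11818 CPM in Old + YM, 10366 and 13979.8 CPM in Old and 13027 and 15427 CPM in Young. CPM is the counts-per-million unit, on library sizes scaled by TMM. Of all 14665 genes tested between Old and Young, 13.6% were called by edgeR, 6.47% higher and 7.13% lower in Old. Of the 10 proximal tubule genes 2 rose and 2 fell in Old. Collecting duct markers fell in 1 of 6 tested cases (16.7%, near the share of all genes called). Their sums were 408 to 663 CPM in Old and 516 to 687 CPM in Young. Macrophage markers rose in Old in 6 of 9 tested cases, with sums of 164 to 997 CPM in Old, the top value in Old 5, and 154 to 197 CPM in Young. Tubule injury markers rose in 6 of 9 tested cases, with sums of 544 to 852 CPM in Old and 446 to 502 CPM in Young. Hepatocyte markers summed to 106 to 224 CPM in Old and 482 to 578 CPM in Young. Of 7 tested genes 1 (14.3%, also near the share of all genes), Ttr, fell, and it alone ran from 43.1 to 530 CPM over the libraries. The other 6 had log2 differences above 0, and none of these passed. The part of these differences in the values of the antioxidant genes was not tested. A score of circadian clock genes, the mean z value of 10 genes of a phase minus that of 5 genes of the opposite phase, was 1.41 to 2.12 in 4 Old libraries, -1.64 in Old 4 and -2.88 to -0.97 in Young, so apart from Old 4 it separated the ages as the groups do.

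Promoter sequences of 27 of the 33 genes were found in RefSeq (GRCm38.p6), as the 250 bases before the start of 35 transcripts. The core of the ARE, TGACNNNGC, stood on either strand of 7 of the 27 genes (Nfe2l2, Txnrd1, Gclm, Sod1, Gsta3, Prdx1 and Mt2), and 10.161% of all 32851 RefSeq promoters of that length hold it. The core of the MRE, TGCACNC or TGCGCNC, stood in 6 genes, and 21.406% of all promoters hold it. These shares are per promoter, whereas a gene with several promoters was counted if any of them held the core. Gene counts and shares are therefore not on the same scale. Of the 10 genes that differed between Old and Young (below), 6 hold the ARE core, 3 of the 6 that rose and 3 of the 4 that fell, and of the 17 others with a sequence 1 does. These matches are descriptions of letters and not of binding. Only this core in these 250 bases was searched, so a gene without a match may hold an ARE farther away or in another form. Srxn1 and Gstp1, which are among the genes without a match, hold TGAGTCAGC, which differs from the core in a single letter. The split between called and other genes therefore rests on the word and window chosen. The sequences below are those of a transferase and a metallothionein that rose in Old and of 3 enzymes that fell, to show that the same core precedes genes of both directions. Each runs 5′ to 3′ on the strand of its gene, with matches in capitals.
Gsta3, chr1:21240335-21240584, plus strand, ARE core TGACATTGC read on the gene's strand: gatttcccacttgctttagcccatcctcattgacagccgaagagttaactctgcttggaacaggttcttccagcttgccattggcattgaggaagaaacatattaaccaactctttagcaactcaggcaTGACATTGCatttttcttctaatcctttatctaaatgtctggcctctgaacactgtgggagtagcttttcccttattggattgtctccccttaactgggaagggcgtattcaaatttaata
Mt2, chr8:94172368-94172617, plus strand, 1 ARE core and 3 MRE cores: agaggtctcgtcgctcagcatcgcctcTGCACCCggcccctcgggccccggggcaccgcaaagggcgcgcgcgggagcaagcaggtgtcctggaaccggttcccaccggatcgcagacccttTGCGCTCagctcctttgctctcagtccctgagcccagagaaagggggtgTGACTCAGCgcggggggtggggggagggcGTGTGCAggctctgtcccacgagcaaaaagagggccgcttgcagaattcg
Gclm, chr3:122245307-122245556, plus strand, 1 ARE core on the opposite strand that overlaps the first of 2 MRE cores: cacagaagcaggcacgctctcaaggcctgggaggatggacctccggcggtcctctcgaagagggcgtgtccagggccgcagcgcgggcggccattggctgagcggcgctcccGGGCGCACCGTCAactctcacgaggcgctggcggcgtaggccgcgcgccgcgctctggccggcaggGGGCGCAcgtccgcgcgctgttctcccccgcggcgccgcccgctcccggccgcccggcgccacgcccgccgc
Prdx1, chr4:116685349-116685598, plus strand, 1 ARE core on the opposite strand: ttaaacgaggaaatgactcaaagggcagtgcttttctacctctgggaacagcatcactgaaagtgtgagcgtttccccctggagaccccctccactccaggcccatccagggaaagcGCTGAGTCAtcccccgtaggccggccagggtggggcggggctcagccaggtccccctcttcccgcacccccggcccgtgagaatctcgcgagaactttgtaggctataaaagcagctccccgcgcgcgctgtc
Sod1, chr16:90220512-90220761, plus strand, 1 ARE core on the opposite strand: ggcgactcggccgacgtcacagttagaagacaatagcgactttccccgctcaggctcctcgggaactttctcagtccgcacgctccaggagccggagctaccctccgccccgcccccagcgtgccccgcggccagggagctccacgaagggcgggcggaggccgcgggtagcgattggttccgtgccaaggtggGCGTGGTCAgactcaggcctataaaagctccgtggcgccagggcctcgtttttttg
Read on the strand that holds it, the ARE word of Mt2 and of Prdx1 was the same, TGACTCAGC, although Mt2 rose and Prdx1 fell in Old kidneys. It was TGACGGTGC in Gclm, TGACCACGC in Sod1 and TGACTCCGC in Nfe2l2. Nearest to the start, the core lay 47 bases before it in Sod1, 70 in Mt2, 112 in Gsta3, 124 in Prdx1 and 125 in Gclm.

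The first comparison, Old with Young, addresses age in untreated mice. The labels name no substrain for either age, so a difference of substrain cannot be told apart from age in these calls (see Nnt below). The glutathione transferase genes Gsta2, Gsta3 and Gstm6, both metallothioneins and Nfe2l2 itself were higher in Old kidneys, while Gclm, Sod1, Prdx1 and Prdx5 were lower. In all, 10 of the 31 tested genes (32.3%) differed in edgeR's quasi-likelihood test, against 13.6% of all 14665 genes tested. At an unadjusted p under 0.05 it was 15 of the 31, against 28.1% of all genes. The 6 that rose stand beside 6.47% of all genes that rose, and the 4 that fell beside 7.13% that fell. Under upper quartile scaling these 10 were again called, while the split over all genes moved to 1104 higher and 758 lower, against 949 higher and 1046 lower with TMM. The median log2 difference was -0.01 over the 31 genes and 0.02 over all genes tested. Groups did not overlap for 7 of the 31 (Nfe2l2, Gsta2 and Gsta3 higher, Gclm, Sod1, Prdx1 and Prdx5 lower), where 9.19% of all genes tested did not overlap, 4.21% higher and 4.97% lower. With the clock score as a covariate 2 genes rose (Gsta2 and Gsta3) and 1 fell (Prdx1). The log2 differences in that fit were 1.90 for Gstm6, 0.43 for Mt1, 0.23 for Nfe2l2, -0.61 for Gclm, -0.34 for Sod1 and -0.34 for Prdx5, with larger errors, and 0.03 for Mt2. That score follows age in all libraries but Old 4, so clock phase and age can largely not be told apart here.

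**Figure D1:**
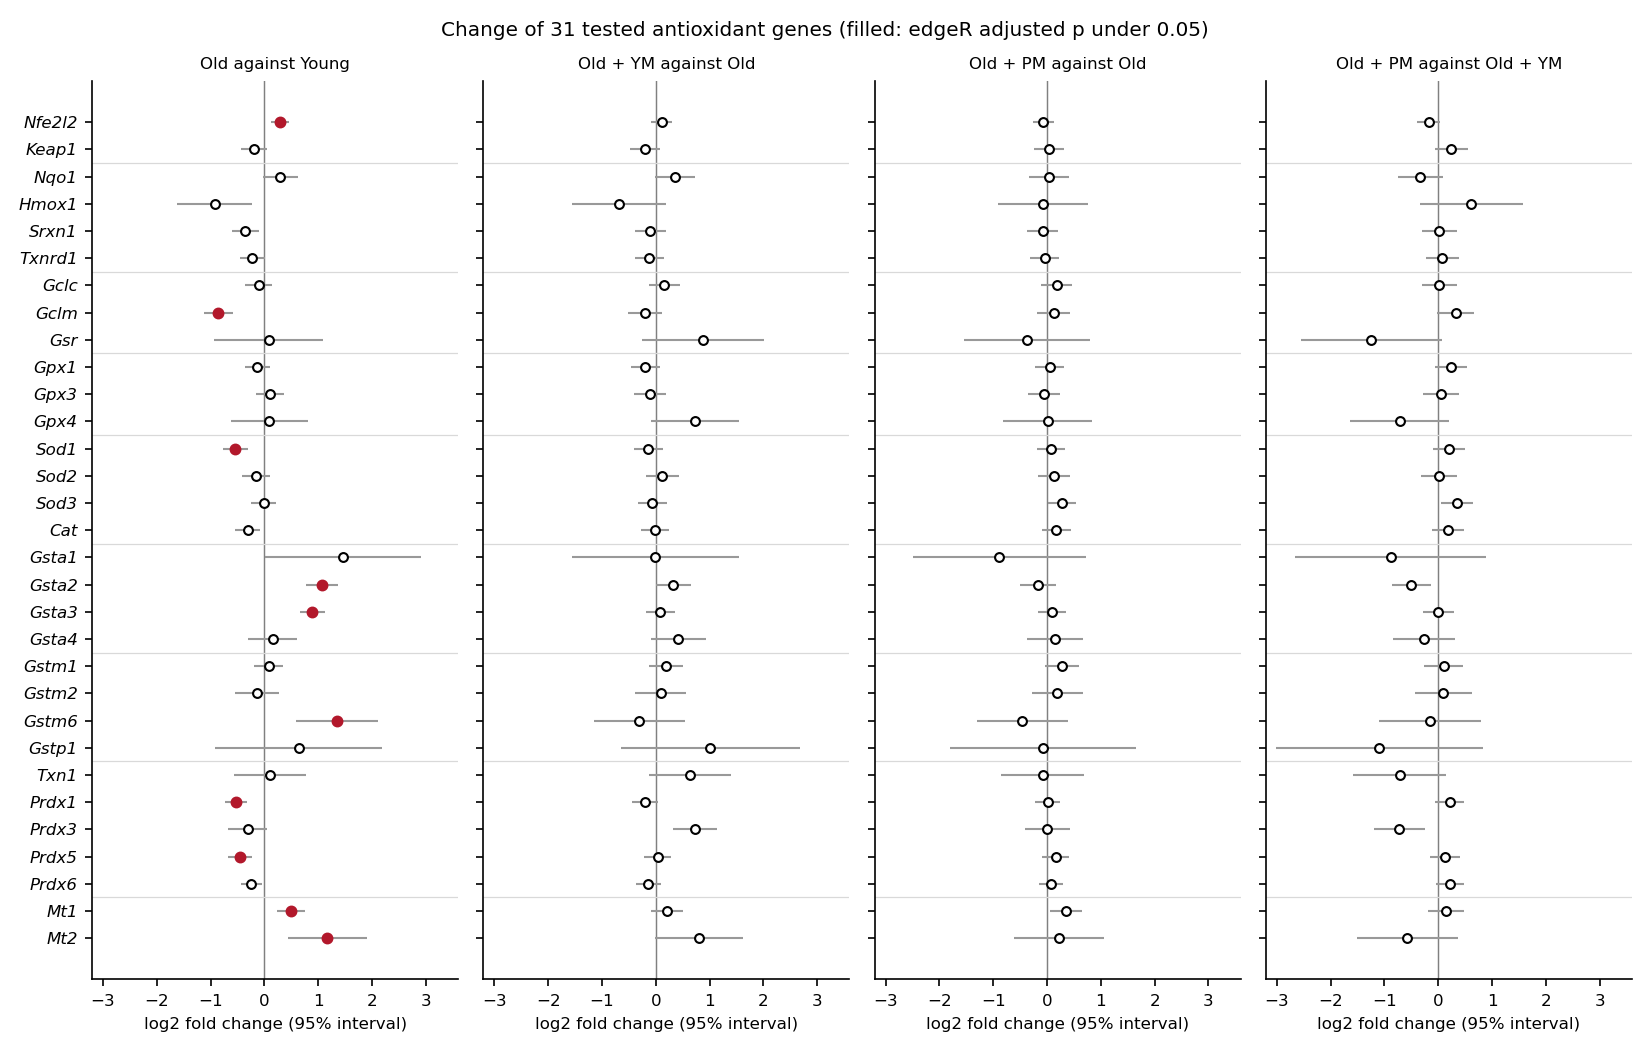
Log2 fold change with 95% interval (horizontal axis) of the 31 tested genes (rows, ordered by role) in the 4 comparisons (columns, from the left: ageing, YM treatment, PM treatment, and PM against YM). Filled points passed an edgeR adjusted p of 0.05: 10 in the first column and 0 in the other columns.

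The regulators came first in the pathway. Nfe2l2, the gene of NRF2 on chromosome 2 (75675513 to 75704641, minus strand, GRCm38), had 137, 139, 129, 136 and 145 CPM in the 5 Old libraries, against 116, 111, 102, 118 and 117 CPM in the 5 Young libraries. Every Old library was above every Young library, by a small margin. The log2 difference was 0.28 (SE 0.08, edgeR adjusted p = 0.0239). It no longer passed without Young 3 (adjusted p = 0.0612) or Old 5 (adjusted p = 0.0599). The call was also lost with no filter on low counts, and with the clock score as a covariate (edgeR adjusted p = 0.331). Keap1, the inhibitor, had 97.3 ± 11 CPM in Old kidneys and 111 ± 15.1 CPM in Young kidneys (SD, n = 5 each), which did not pass (log2 -0.19, adjusted p = 0.306). An antisense transcript, Gm16754, covers the 3′ end of Keap1, and whether strand was used in counting is not known from the sources used here.

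None of the 4 genes grouped here as NRF2 target enzymes passed, where Nfe2l2 did. Gclm, of the glutathione synthesis genes that NRF2 also controls, did pass and was lower in Old (below). Nqo1, a quinone reductase, had 38.9 ± 10.2 CPM in Old kidneys and 31.7 ± 3.29 CPM in Young kidneys (n = 5 each; log2 0.30, adjusted p = 0.228). Hmox1, which encodes the heme-degrading enzyme heme oxygenase 1, had 2.89, 2.01, 1.67, 6.63 and 4.69 CPM in Old, against 7.34, 6.10, 8.10, 7.34 and 5.13 CPM in Young. Old 4 was the Old library inside the Young range, and the difference narrowly missed the threshold in edgeR (log2 -0.92, SE 0.34, adjusted p = 0.0731). Srxn1, sulfiredoxin, which repairs overoxidised peroxiredoxins, had 62.9 ± 11.4 CPM in Old kidneys and 80.3 ± 6.95 CPM in Young kidneys (log2 -0.35, adjusted p = 0.0572). Txnrd1, cytosolic thioredoxin reductase, had 88.4 ± 10.6 CPM in Old kidneys and 103 ± 14.4 CPM in Young kidneys (log2 -0.22, adjusted p = 0.206). DESeq2 called Hmox1 and Srxn1 lower, and limma-voom called Hmox1 lower.

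Glutathione synthesis begins with glutamate-cysteine ligase, made of the catalytic subunit Gclc and the modifier subunit Gclm, which lowers the enzyme's need for glutamate and its sensitivity to feedback. Gclm on chromosome 3 (122245557 to 122270732, plus strand) had 118, 125, 115, 145 and 96.3 CPM in Old, against 252, 222, 218, 227 and 165 CPM in Young. All Old libraries lay below all Young libraries, and the lowest Young value, 165 CPM, was that of Young 5. The log2 difference was -0.86 (SE 0.13, edgeR adjusted p = 0.000309). Gclc had 149, 147, 146, 121 and 142 CPM in Old, against 181, 136, 158, 135 and 148 CPM in Young, with overlapping groups and no call (log2 -0.10, 95% interval -0.35 to 0.15, adjusted p = 0.625). As a level of Gclm per 100 of Gclc in the same library, the 5 Old libraries held 79.1, 85.3, 78.4, 119.8 and 67.7, against 139.7, 163, 137.9, 168.5 and 111 in Young. Old 4 was above Young 5 in this ratio, and the other Old libraries were below every Young library. Gclm shares its 3′ end with Gm17494 on the other strand, and 244 exonic bases with a pseudogene, Gm6061, on its own strand, so reads of these could be counted with it.

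The other 2 genes of this step gave no call. Gsr, glutathione reductase, which returns oxidised glutathione to its reduced form, had 55.8, 32.7, 57.3, 19.8 and 48.1 CPM in Old, against 22.9, 24.3, 42.6, 29.4 and 84.3 CPM in Young (log2 0.08, 95% interval -0.93 to 1.08). Slc7a11, the cystine importer xCT, was at 0 in most libraries and was not tested: Old 5 held 26 counts, Old + YM 3 held 7, Young 3 held 4, Old 2 held 2, Old 4 held 1, and the other 11 libraries held 0.

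Glutathione transferases join glutathione to electrophiles. Of the alpha class, Gsta2 on chromosome 9 (78331018 to 78355788, minus strand) had 198, 247, 244, 189.7 and 265 CPM in Old, against 109, 118, 104, 108 and 104 CPM in Young. The lowest Old library was well above the highest Young library. The log2 difference was 1.07 (SE 0.14, edgeR adjusted p = 8.01e-05), a 2.10-fold rise. Gsta3 on chromosome 1 (21240589 to 21265661, plus strand) had 173, 197, 169, 197 and 177 CPM in Old, against 109, 101, 105, 88.6 and 88.5 CPM in Young. Here too the groups stood apart, with a log2 difference of 0.89 (SE 0.11, adjusted p = 5.17e-05). Both were also called in every alternative tried. The last 300 bases of the Gsta2 transcript match Gm10639 at 97.3%, so reads of that gene could be counted as Gsta2.

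The other alpha genes did not pass. Gsta4, the transferase of lipid peroxidation products such as 4-hydroxynonenal, had 21.0 ± 4.97 CPM in Old kidneys and 18.9 ± 4.51 CPM in Young kidneys (n = 5 each; log2 0.15, adjusted p = 0.703). Gsta1 was close to the detection limit, with 2 to 15 counts in the Old libraries and 1 to 6 in the Young ones (log2 1.46, SE 0.70, adjusted p = 0.175), and its 3′ end matches Gm3776 at 99.7%.

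In the mu class, a gene cluster on chromosome 3, 1 of 3 tested genes passed. Gstm6 (107938847 to 107943749, minus strand) had 1.49, 4.69, 1.88, 5.07 and 4.19 CPM in Old, against 1.55, 1.63, 1.21, 0.971 and 1.45 CPM in Young. Old 1 lay within the Young range, Old 3 just above it, and the other 3 Old libraries at 4.19 to 5.07 CPM (log2 1.34, SE 0.37, edgeR adjusted p = 0.0189). The call was lost without Young 4 (adjusted p = 0.0523) and with limma-voom (adjusted p = 0.0706). Gstm1 had 419 ± 71.7 CPM in Old kidneys and 397 ± 45.7 CPM in Young kidneys (log2 0.08, 95% interval -0.20 to 0.35), and Gstm2 had 37.4 ± 10.5 CPM in Old kidneys and 41.1 ± 9.82 CPM in Young kidneys (log2 -0.14, adjusted p = 0.702). Summed over the 4 mu genes, the level was 460.1 ± 80.4 CPM in Old kidneys and 439.9 ± 54.6 CPM in Young kidneys, a difference smaller than the SD of either group. Gstm3 had at most 2 counts in a library. Gstp1, of the pi class, cannot be told from Gstp2 or Gstp-ps by its last 300 bases (100.0% identity over 300 and 234 bases), and is described further down.

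Superoxide dismutase 1, the copper-zinc enzyme of the cytosol, was lower in Old. Sod1 on chromosome 16 (90220754 to 90226329, plus strand) had 1066, 1288, 1079, 1371 and 983 CPM in Old, against 1838, 1701, 1491, 1895 and 1506 CPM in Young. The highest Old library, Old 4, was below the lowest Young library. The log2 difference was -0.54 (SE 0.11, edgeR adjusted p = 0.00310). The 3′ end of Sod1 matches Gm8566 at 97.8%, and that of Sod2 carries a stretch found in 6 other genes at 95.2% to 96.8%. Neither the mitochondrial manganese enzyme nor the extracellular one was called: Sod2 had 339 ± 66.4 CPM in Old kidneys and 377 ± 50.9 CPM in Young kidneys (log2 -0.15, adjusted p = 0.467). Sod3 had 382 ± 49.0 CPM in Old kidneys and 386 ± 36.5 CPM in Young kidneys (log2 -0.01, 95% interval -0.24 to 0.22). Catalase, the peroxisomal enzyme, had 505, 653, 514, 559.9 and 456 CPM of Cat in Old, against 696, 724, 639.9, 727 and 553 CPM in Young. Old 2 and Old 4 lay within the Young range, and the difference missed the threshold in edgeR (log2 -0.31, SE 0.11, adjusted p = 0.0617), while DESeq2 called it lower.

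The glutathione peroxidases were not called. Gpx3, the secreted peroxidase, had 26085, 25164, 20953, 32874 and 23181 CPM in Old, against 26324, 24048, 21402, 25759.7 and 21926 CPM in Young (log2 0.10, 95% interval -0.15 to 0.36). Gpx1, the cytosolic one, had 4044 ± 739.5 CPM in Old kidneys and 4429 ± 167 CPM in Young kidneys (log2 -0.13, adjusted p = 0.481), with Old 5 lowest at 3053 CPM. Gpx4, which reduces lipid hydroperoxides in membranes and restrains ferroptosis, is taken up with Txn1 and Gstp1.

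Of the 4 peroxiredoxins, which reduce peroxides through a reactive cysteine, 2 fell. Prdx1 on chromosome 4 (116685544 to 116700822, plus strand), a cytosolic peroxiredoxin, had 785, 949, 847, 755 and 723 CPM in Old, against 1137, 1159, 1208, 1257 and 1120.1 CPM in Young. All Old libraries were below all Young libraries (log2 -0.54, SE 0.10, edgeR adjusted p = 0.00129). Prdx5 on chromosome 19 (6906697 to 6910106, minus strand), found in mitochondria, peroxisomes and cytosol, had 1831, 2129.6, 1804, 1952 and 1408 CPM in Old, against 2703, 2414, 2335, 2736 and 2358 CPM in Young. Again no Old library reached the Young range (log2 -0.46, SE 0.11, adjusted p = 0.00715). Prdx5 overlaps Trmt112 on the other strand over 409 exonic bases. Prdx6, which also reduces phospholipid hydroperoxides, had 234 ± 28.4 CPM in Old kidneys and 278 ± 24.4 CPM in Young kidneys (log2 -0.24, adjusted p = 0.0956). Prdx3, the peroxiredoxin of mitochondria, had 30.4 ± 6.72 CPM in Old kidneys and 37.8 ± 9.73 CPM in Young kidneys (log2 -0.31, adjusted p = 0.252).

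Metallothioneins were higher in Old. Mt1 on chromosome 8 (94179082 to 94180327, plus strand) had 534, 592, 431, 482 and 513 CPM in Old, against 433, 380.3, 342, 361 and 298 CPM in Young. Only Old 3 and Young 1 kept the groups from standing apart, since Old 3, at 431 CPM, was just below Young 1 (log2 0.49, SE 0.13, edgeR adjusted p = 0.0138). Its neighbour Mt2 (94172664 to 94173568, plus strand) had 322, 292, 216, 138 and 295 CPM in Old, against 102, 93.1, 95.6, 88.3 and 182 CPM in Young. Old 4 was below Young 5, and apart from these 2 libraries the groups were well separated (log2 1.17, SE 0.34, adjusted p = 0.0387). The call of Mt2 was lost on leaving out any of 11 of the 16 libraries, with adjusted p up to 0.0986, whereas without Young 5 the log2 difference was 1.44 (adjusted p = 0.0157). Adding the clock score to the model gave 0.03 (SE 0.41). In the same library, Mt2 amounted to 60.2, 49.3, 50.2, 28.6 and 57.4 per 100 CPM of Mt1 in Old, against 23.7, 24.5, 27.9, 24.5 and 61.1 in Young. Old 4 thus held nearly the ratio of 4 Young libraries, and Young 5 a ratio just above those of the Old libraries. An antisense transcript, Gm45774, overlaps 432 exonic bases of Mt2.

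**Figure D2:**
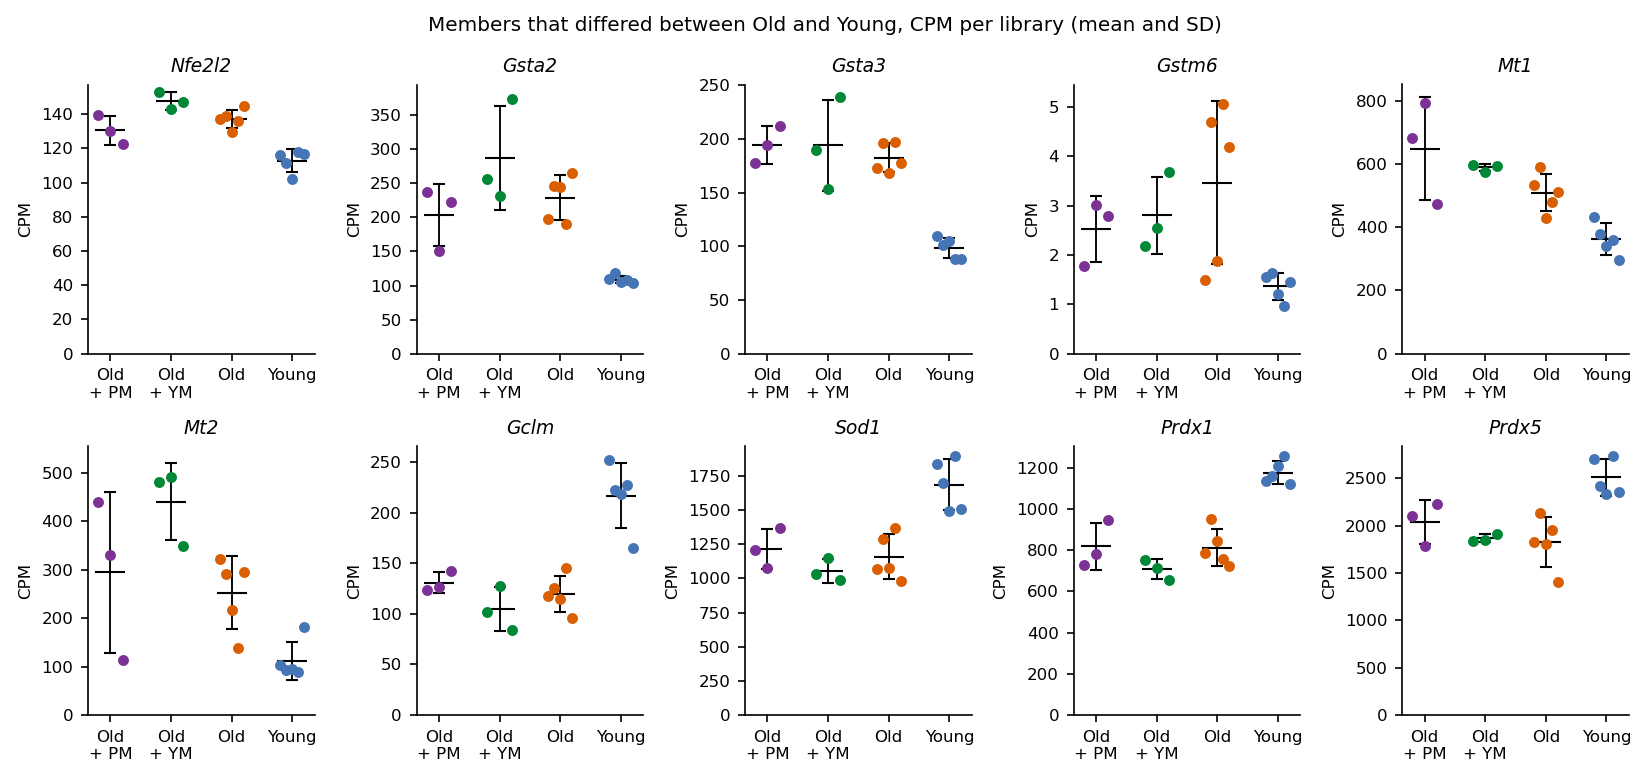
CPM per library (vertical axis from 0, points) with mean and SD (bars) of the 10 genes that differed between Old and Young, in Old + PM, Old + YM, Old and Young. The points of Old and Young did not overlap for Nfe2l2, Gsta2, Gsta3, Gclm, Sod1, Prdx1 and Prdx5, and did for Gstm6, Mt1 and Mt2.

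Beside the 33, 88 other genes of the pathway were listed, also with earlier results of these data known. Of these, 84 were tested, of which 8 rose and 12 fell in Old (23.8%, beside 13.6% of all genes tested), with a median log2 difference of -0.07. In the list for glutathione synthesis, turnover and cysteine supply, 5 of 11 fell and none rose. Among them Ggct, gamma-glutamylcyclotransferase, had 36.9 ± 6.15 CPM in Old kidneys and 94.1 ± 19.1 CPM in Young kidneys (n = 5 each; log2 -1.35, edgeR adjusted p = 5.31e-06). Gss, glutathione synthetase, had 92.2 ± 11.3 CPM in Old kidneys and 144 ± 13.7 CPM in Young kidneys (log2 -0.64, adjusted p = 0.000356). Ggt1, the brush border enzyme that breaks down extracellular glutathione, fell by 0.80 on the log2 scale. All 3 were lower in every Old library than in any Young library. In the NADPH supply list 3 of 8 fell and none rose: Nnt, the mitochondrial transhydrogenase, had 46.6 ± 3.92 CPM in Old kidneys and 110.9 ± 11.8 CPM in Young kidneys (log2 -1.25, adjusted p = 9.12e-08), and Taldo1 and Me1 fell by 0.37 and 0.51. Nnt is known for a deletion in the C57BL/6J substrain, and the labels name no substrain for either age.

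In the list of NRF2 targets outside the 33, 14 were tested, of which 5 rose and none fell. Genes of glutathione synthesis and NADPH supply had their own lists, so falls there, as of Gss and Me1, are not counted in it. Abcc4, an efflux pump, had 72.7 ± 22.2 CPM in Old kidneys and 24.2 ± 1.47 CPM in Young kidneys (log2 1.59, edgeR adjusted p = 5.44e-05). Ephx1, microsomal epoxide hydrolase, had 44.2 ± 11.4 CPM in Old kidneys and 17.4 ± 3.58 CPM in Young kidneys (log2 1.34, adjusted p = 0.000254), and Cbr3, a carbonyl reductase, had 7.25 ± 4.31 CPM in Old kidneys and 2.58 ± 0.973 CPM in Young kidneys (log2 1.48, adjusted p = 0.0111). Other glutathione transferases rose in 2 of 13 cases (15.4%, near the 13.6% of all genes called) and none fell, with Mgst1, a microsomal enzyme, at log2 1.09 and Gsto1 at 0.44. In the list of other peroxidases, thioredoxins and repair enzymes 4 of 25 (16%, also near that share) fell and none rose, with Msrb1, a methionine sulfoxide reductase, at log2 -0.73, Selenop, the selenium carrier, at -0.69 and mitochondrial Txn2 at -0.37. Of 6 metal handling genes Cp, ceruloplasmin, rose (log2 1.85, adjusted p = 0.00106). None of the 7 regulators and partners of NRF2 passed. The smallest adjusted p among these was 0.128, for Mafk (log2 -0.42).

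**Figure D3:**
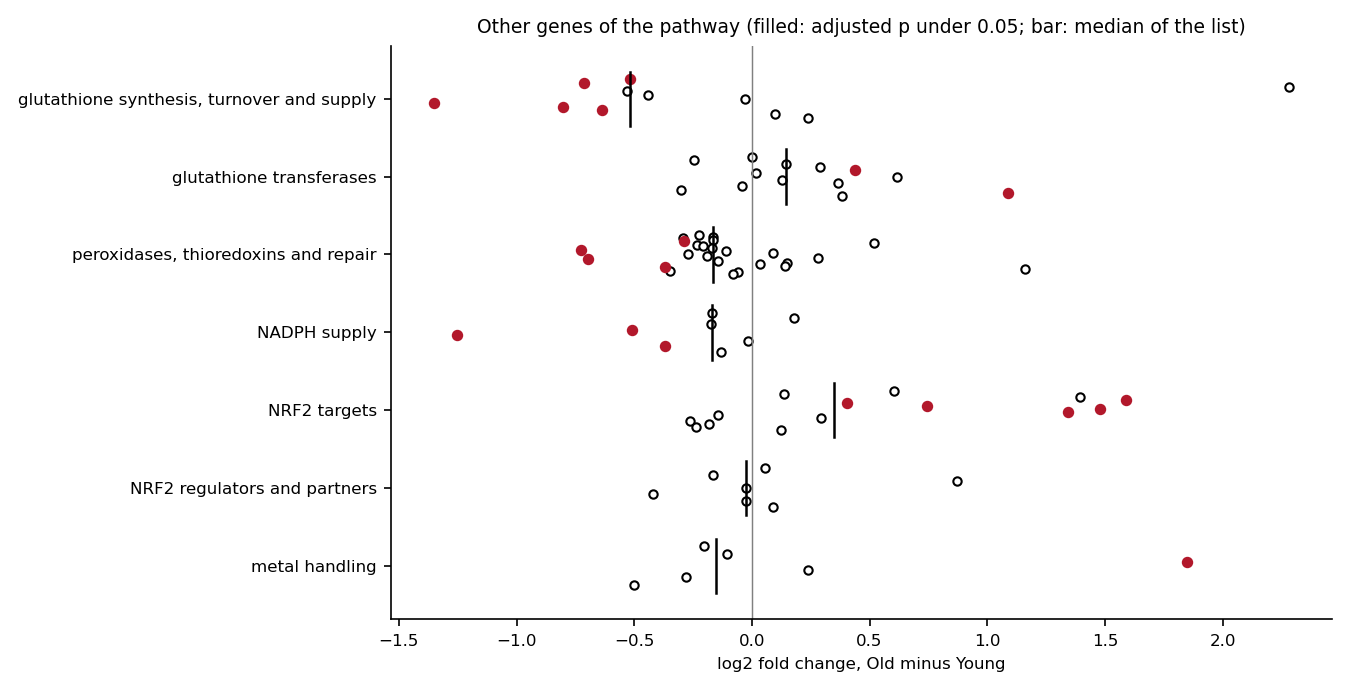
Log2 difference of Old minus Young (horizontal axis) for 84 tested genes of the pathway outside the 33, one point per gene, by list (rows), with the median of each list as a bar. Filled points passed an edgeR adjusted p of 0.05: 8 to the right of 0 and 12 to the left.

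Gpx4, Gsr, Gstp1, Txn1, Prdx3 and Mt2 had the same libraries at the ends of their groups, and of these genes Gpx4, Gstp1, Txn1 and Mt2 had a library far from the rest of its group. Txn1, thioredoxin 1, had 379, 343, 396, 158 and 369 CPM in Old, against 208, 246, 309, 239.6 and 526 CPM in Young (log2 0.11, 95% interval -0.56 to 0.77, edgeR adjusted p = 0.865). Gpx4 had 62.5, 59.6, 58.2, 22.6 and 62.9 CPM in Old, against 27.0, 39.8, 50.6, 55.6 and 76.9 CPM in Young (log2 0.09, adjusted p = 0.894). Gstp1 had 10.3, 10.6, 11, 2.44 and 10.2 CPM in Old, against 1.24, 2.64, 5.37, 3.24 and 16.7 CPM in Young (log2 0.64, 95% interval -0.91 to 2.19, adjusted p = 0.618). In all of them Old 4 was the lowest Old library and Young 5 the highest Young library, and Old + PM 3 was the lowest of its group. The same libraries were at the ends of a score of 5 respiratory chain and ribosomal transcripts (Cox7c, Ndufa1, Rpl15, Rps23 and Rpl35a, the mean z value per library): Old + PM 3 had -1.72, Old 4 had -1.61, Young 5 had 0.93 and the 3 Old + YM libraries had 0.98, 1.13 and 1.2. The 5 genes were picked after values were seen. The other libraries ran from -0.24 to 0.75 in Old + PM, 0.05 to 0.70 in Old and -1.19 to -0.21 in Young. Without Young 5, Old 4 and Old + PM 3, 8 genes rose in Old (Txn1 by log2 0.57 and Gstp1 by log2 1.74 added) and 10 fell (Keap1, Hmox1, Srxn1, Txnrd1, Cat and Prdx6 added), where over all 15111 genes then tested 1926 rose and 2022 fell. These libraries were left out after their values in these genes had been seen, so the larger differences of Txn1, Gstp1 and Mt2 follow from that choice. Gpx4 carries a near-copy of its 3′ end in the pseudogene Gpx4-ps2 (99.7% identity).

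**Figure D4:**
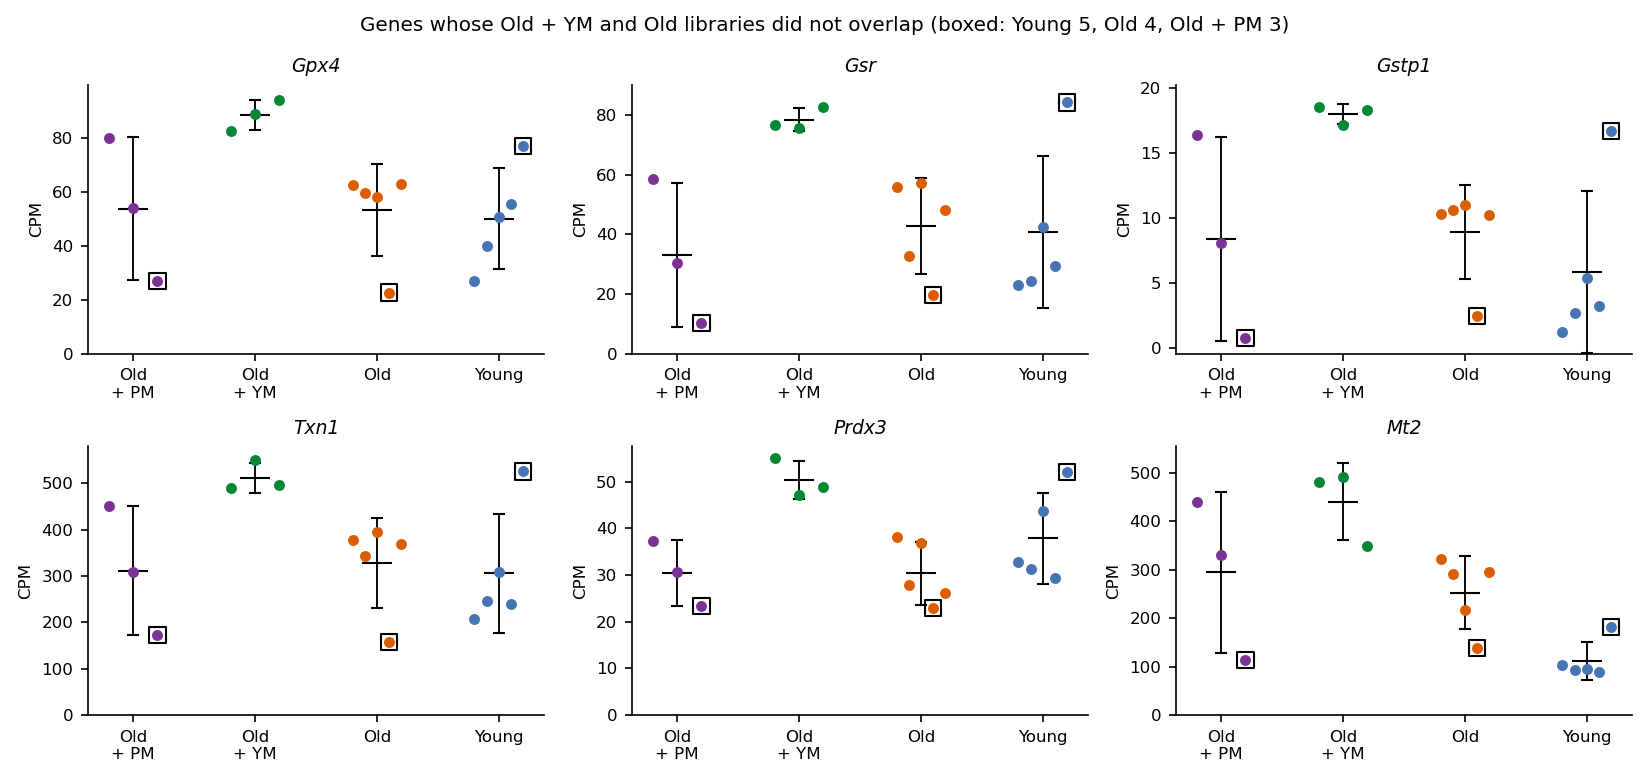
CPM per library (vertical axis, points) with mean and SD (bars) of Gpx4, Gsr, Gstp1, Txn1, Prdx3 and Mt2 in Old + PM, Old + YM, Old and Young. Boxes mark Old + PM 3, Old 4 and Young 5, of which the first and second are the lowest of their groups in each panel and the third the highest of its group.

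The comparison of Old + YM with Old asks whether the formula changed the aged kidney. No gene of the 33 passed in edgeR, where 3 of all 14665 genes tested (0.0205%) did. DESeq2 and limma-voom called none of the 33 either, and 2 of the 31 had an unadjusted p under 0.05, as did 9.48% of all genes. The smallest unadjusted p was that of Prdx3, with 55.1, 47.2 and 48.8 CPM in Old + YM, against 38.0, 27.9, 36.9, 23.0 and 26.1 CPM in Old. The 3 treated libraries were above all Old libraries (log2 0.73, SE 0.20, unadjusted p = 0.00145, edgeR adjusted p = 0.277). Gsta2 had 256, 232 and 374 CPM in Old + YM, against 198, 247, 244, 189.7 and 265 CPM in Old, with Old + YM 3 alone above the Old range (log2 0.33, adjusted p = 0.524). Nqo1 had 40.8, 45.9 and 63.7 CPM in Old + YM, against 31, 37.4, 39.1, 31.2 and 56.0 CPM in Old (log2 0.36, adjusted p = 0.531).

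Groups of Old + YM and Old did not overlap for 6 of the 31 genes, all higher with YM: Gsr, Gpx4, Gstp1, Txn1, Prdx3 and Mt2. Of all genes tested 9.1% did not overlap in that comparison, 5.15% higher and 3.95% lower. Txn1 had 491, 549 and 496 CPM in Old + YM, where the highest Old library had 396 CPM (log2 0.64, 95% interval -0.12 to 1.40, edgeR adjusted p = 0.589). Gpx4 had 82.6, 88.7 and 93.9 CPM in Old + YM, where the highest Old library had 62.9 CPM (log2 0.73, adjusted p = 0.570). Gstp1 had 18.5, 17.2 and 18.3 CPM in Old + YM and at most 11 CPM in Old, and Gsr had 76.7, 75.8 and 82.8 CPM in Old + YM and at most 57.3 CPM in Old. Mt2 had 481, 491 and 349 CPM in Old + YM and at most 322 CPM in Old (log2 0.80, adjusted p = 0.531). The 3 Old + YM libraries also held the 3 highest values of the 5-gene score, whose genes were picked after values were seen. Score and YM treatment can therefore largely not be told apart in this comparison, and smaller differences with the score in the model do not separate them. With that score as a covariate the log2 differences were 0.05 for Txn1, 0.11 for Gpx4, 0.02 for Gsr, -0.31 for Gstp1, 0.23 for Mt2 and 0.41 for Prdx3 (adjusted p = 0.444 for Prdx3), against 0.64, 0.73, 0.88, 1.02, 0.80 and 0.73 without it. Without Young 5, Old 4 and Old + PM 3, Mt2 passed (log2 0.65, SE 0.14, adjusted p = 0.0353) and Prdx3 did not (log2 0.64, adjusted p = 0.0625). Old 4 was left out after it was seen to be the lowest Old library in Mt2, so this call is no independent support.

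In the comparison of Old + PM with Old, which uses the same Old libraries, no gene passed in edgeR, among the 33 or over all genes (0%), nor in DESeq2 or limma-voom, and 2 of the 31 had an unadjusted p under 0.05, as did 6.16% of all genes. Groups overlapped for each of the 31, where 4.02% of all genes tested did not overlap, 1.92% higher and 2.1% lower. Mt1 had 682, 794 and 475 CPM in Old + PM, against 534, 592, 431, 482 and 513 CPM in Old. Old + PM 1 and Old + PM 2 were above the Old range and Old + PM 3 within it (log2 0.35, SE 0.14, unadjusted p = 0.0250, edgeR adjusted p = 0.790). Sod3 had 421, 411 and 565 CPM in Old + PM, against 339, 451, 353, 417 and 352 CPM in Old (log2 0.28, adjusted p = 0.790), and Old + PM 3 alone exceeded the Old range. Gstm1 had 546, 538 and 449 CPM in Old + PM, against 353, 464, 332, 454 and 492 CPM in Old (log2 0.29, adjusted p = 0.839).

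The 10 genes that differed with age were then followed in the treated libraries. Of their 60 values, 38 lay inside the range of the 5 Old libraries, 15 above it and 7 below it, and 1 of the 60 lay inside the Young range. By formula, 21 of 30 values of Old + PM lay in the Old range, 6 above and 3 below, and 17 of 30 values of Old + YM lay in it, 9 above and 4 below. The value in the Young range was Mt2 in Old + PM 3, with 114 CPM, while Old + PM 1 and Old + PM 2 had 439.6 and 331 CPM. The same count was not made over all genes tested, and values of the same library are not independent of each other. The 10 genes were chosen for an age difference, so a value near those of Old mostly lies outside the Young range by that choice. These counts describe positions only. Gclm had 123, 126 and 143 CPM in Old + PM and 102, 128 and 84.2 CPM in Old + YM, below the 165 to 252 CPM of Young in each library. Gsta3 had 177, 194 and 212 CPM in Old + PM and 189.7, 154 and 239 CPM in Old + YM, all above the highest Young value of 109 CPM. Sod1 had 1204, 1074 and 1371 CPM in Old + PM and 1029, 1148 and 984 CPM in Old + YM, each below the lowest Young value of 1491 CPM. Prdx1 had 728, 780.2 and 946 CPM in Old + PM and 753, 713 and 657 CPM in Old + YM, with its lowest Young value at 1120.1 CPM. Prdx5 had 2105, 1784 and 2233 CPM in Old + PM and 1838, 1851 and 1917 CPM in Old + YM, also below all Young libraries. In these 5 genes no treated library reached the Young range. For Gclm the 95% interval of the log2 difference from Old was -0.18 to 0.43 with PM and -0.51 to 0.12 with YM, beside a difference of -0.86 between Old and Young. For Sod1 it was -0.19 to 0.34 with PM and -0.40 to 0.13 with YM, beside -0.54 between Old and Young. For Gsta3 it was -0.17 to 0.35 with PM and -0.17 to 0.35 with YM, beside 0.89 between Old and Young. In all 3 genes neither interval reached a difference as large as that with age in the opposite direction.

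**Figure D5:**
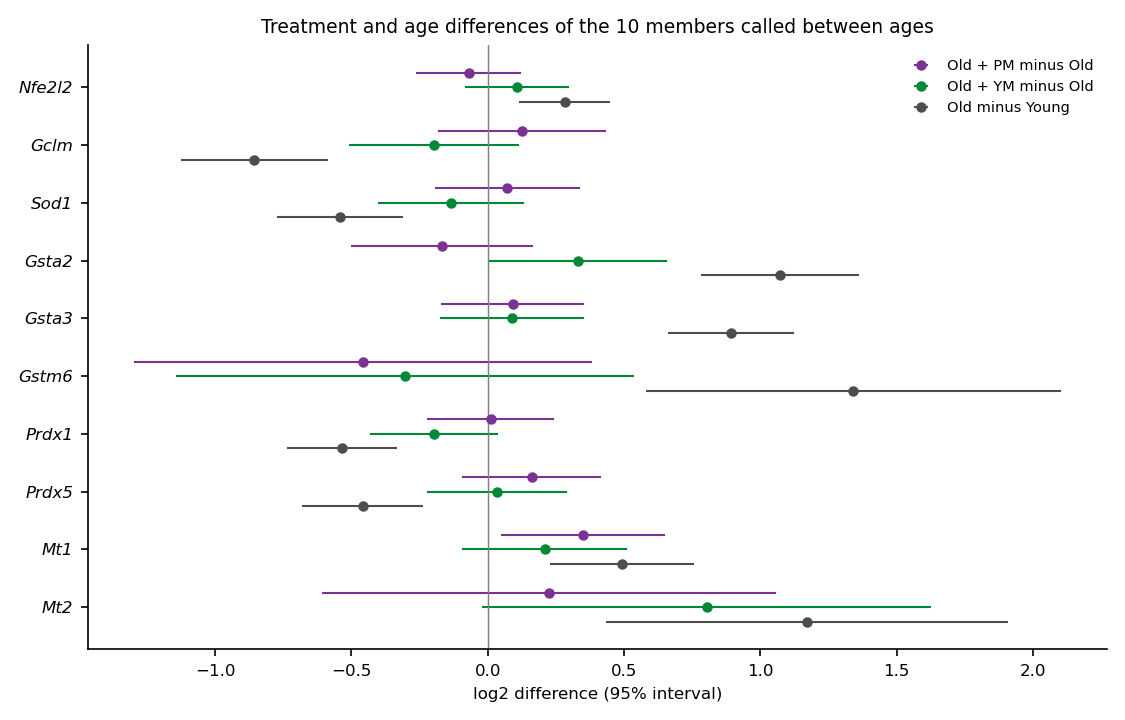
Log2 difference with 95% interval (horizontal axis) of the 10 genes that differed with age (rows), for Old + PM minus Old, Old + YM minus Old and Old minus Young. The treatment differences share the Old libraries with the age difference; none passed the threshold, and those of Gclm lay at 0.13 with PM and -0.20 with YM, beside -0.86 with age.

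Both formulas were given at the same labelled dose and time, and Old + PM was compared with Old + YM directly. No gene of the 33 passed, nor any of the 14665 (0%). DESeq2 called 13 genes higher and 45 lower over all genes and none of the 33, and 3 of the 31 had an unadjusted p under 0.05, as did 12.8% of all genes. Prdx3 had 37.4, 30.7 and 23.3 CPM in Old + PM, against 55.1, 47.2 and 48.8 CPM in Old + YM (log2 -0.72, SE 0.22, unadjusted p = 0.00430, edgeR adjusted p = 0.260). Gsta2 had 238, 151 and 222 CPM in Old + PM, against 256, 232 and 374 CPM in Old + YM (log2 -0.50, adjusted p = 0.292). Old + PM 1 exceeded the lowest Old + YM library in Gsta2, so the groups overlapped there and not in Prdx3. Sod3 had 421, 411 and 565 CPM in Old + PM, against 365, 341 and 393 CPM in Old + YM, without overlap (log2 0.35, adjusted p = 0.331). With 3 libraries a group, 23.8% of all genes tested did not overlap, and 10 of the 31 did not: Gpx1, Sod3, Cat and Prdx6 were higher and Nfe2l2, Gsr, Gpx4, Gstp1, Txn1 and Prdx3 lower with PM. Nfe2l2 had 139, 130.2 and 122 CPM in Old + PM, against 153, 143 and 147 CPM in Old + YM (log2 -0.18, adjusted p = 0.464).

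In edgeR the same 3 comparisons left the other genes of the pathway without a call (0 of 84 in each), while DESeq2 called 1 of them higher in Old + YM against Old, as did edgeR with the clock score, without Young 5, or without Young 5, Old 4 and Old + PM 3. Closest was Cth, cystathionine gamma-lyase, which makes cysteine, with 77.2 ± 18.6 CPM in Old + YM (n = 3) and 39.9 ± 8.60 CPM in Old (n = 5; log2 0.95, SE 0.20, edgeR adjusted p = 0.158). Its groups did not overlap, and the lowest Old + YM library had 59.2 CPM where the highest Old library had 52.6 CPM.

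Whether related genes varied together from library to library, once group means were removed, was examined for 6 pairs over the 16 libraries, with permutation within groups. None passed after adjustment over the 6. Mt1 and Mt2 had a Pearson r of 0.43 (permutation p = 0.352, adjusted p = 0.422) and a Spearman rho of 0.44 (permutation p = 0.194), and r was 0.04 without the 2 libraries farthest from the median of Mt1. Gclc and Gclm, the subunits of an enzyme, had r of -0.01 (permutation p = 0.982) and rho of 0.02. Nqo1 and Txnrd1, both NRF2 targets, had r of -0.48 (permutation p = 0.0565, adjusted p = 0.194), and -0.58 without the 2 farthest libraries. Txnrd1 and Srxn1 had r of 0.48 (permutation p = 0.0971, adjusted p = 0.194), Gsta1 and Gsta2 0.52 (permutation p = 0.0733, adjusted p = 0.194), and Nfe2l2 and Nqo1 0.29 (permutation p = 0.248, adjusted p = 0.373).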

How the data were processed

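Kidney RNA of 16 libraries was measured by 3′ QuantSeq. The authors deposited raw counts per gene symbol, 1 file per library. The submitters' processing notes name Bowtie2, bedtools and the mm10 build. Versions, annotation, strand use and the treatment of reads that align in several places are not given there. The 33 genes, the other lists and the tests were chosen with earlier results of these data known. Depth was 8223008 to 10914515 counts, so values of genes with a few counts are imprecise.

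The analysis used edgeR 4.0.16 in R 4.3.3. The filter filterByExpr (minimum count 10) kept 14665 of 40879 symbols, and TMM scaled the libraries. A quasi-likelihood fit of all 16 libraries with group as the term gave 4 two-sided comparisons, with Benjamini-Hochberg adjustment over all genes tested at 0.05. CPM are given as mean ± SD over n libraries, and log2 fold changes with the SE of the fit. Libraries of a group differed by more than sampling noise, so none was counted as a duplicate. Each gene of the 33 that passed is named with all its values, and where none passed, the 3 with the smallest unadjusted p. Of other lists, up to 3 genes that passed are named by smallest adjusted p. Genes named for groups that did not overlap, and Cth and Mafk, were chosen after their values were seen. Shared replicate numbers were not used as pairs in the main fit, since same-numbered libraries showed no clear correlation. Alternatives were DESeq2 1.42.0, limma-voom (limma 3.58.1), other scaling, filters, covariates and samples. The edgeR step was tested on simulated counts. Positions and 3′ copies come from GENCODE M21 (GRCm38).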

Additional observations from a re-analysis of the deposited data

Results flagged for a closer look

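In groups of 5 libraries, a value far from the other 4 was found in 6 of 62 groups of Old or Young libraries. Chance gives about 1 in 20 for independent groups. These groups are genes measured in the same libraries and are not independent: 4 of the values lay in Old 4 and 2 in Young 5. In Old 4, Gclc had 121 CPM, against 142 to 149 CPM in the other Old libraries. Gpx4 had 22.6 CPM there, against 58.2 to 62.9 CPM. Gstp1 had 2.44 CPM in Old 4, against 10.2 to 11 CPM, and Txn1 had 158 CPM, against 343 to 396 CPM. In Young 5, Gstp1 had 16.7 CPM, against 1.24 to 5.37 CPM in the other Young libraries, and Mt2 had 182 CPM, against 88.3 to 102 CPM. The 5-gene score was -1.61 in Old 4 and 0.93 in Young 5.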

How the results depend on the processing

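Between Old and Young, 6 genes rose and 4 fell. The number that rose was 4 with limma-voom or no filter, 2 with the clock score as a covariate, 8 without Young 5, Old 4 and Old + PM 3, and 4 to 6 when each library was left out in turn. The number that fell was 7 with DESeq2, 1 with the clock score, 10 without those 3 libraries, 8 with the 5-gene score, and 4 to 7 when each library was left out, with 7 without Old 4. The alternatives without 3 libraries and with the 5-gene score were chosen after seeing the data. With the replicate number as a block, 6 rose and 7 fell. Correlations of same-numbered libraries ran from -0.09 to 0.16, so no clear pairing by number was seen. With so few libraries a group, this check cannot exclude a weak pairing or a shared batch. In Old + YM against Old, 1 gene, Mt2, rose without those 3 libraries, of which Old 4 was the lowest Old library in Mt2. Apart from that, none of the 33 was called in a treatment comparison under the alternatives run. Over all genes, calls between Old and Young were 949 higher and 1046 lower, against 175 and 326 with the clock score and 1926 and 2022 without the 3 libraries. DESeq2 called 34 higher and 15 lower in Old + YM against Old, and 13 and 45 in Old + PM against Old + YM. All 513 log2 values of named genes kept their direction, and 25 lost their call, mostly Mt2. The correlation of Gclc and Gclm ran from -0.17 to 0.17 and that of Mt1 and Mt2 from -0.11 without Old + PM 3 to 0.725 without Young 5, as each library was left out. Except where stated, the cause was not tested. Genes of a few counts, such as Gsta1 and Gstm6, are limited by depth.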
